A study of Caenorhabditis elegans with 2 samples.

Results

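The germline stem cell and meiotic entry regulators studied here are 10 named Caenorhabditis elegans genes, glp-1, gld-1, gld-2, fbf-1, fbf-2, nos-2, nos-3, daz-1, puf-5 and rnp-8, out of 19973 protein-coding genes annotated on the chromosomes I to V and X. They were taken by name. ATHP-1 carries an AT-hook, which binds the minor groove of A- and T-rich DNA, and a PHD finger, a reader of histone tails, and its binding had been mapped in whole worms by chromatin immunoprecipitation and sequencing (ChIP-seq). The single group was strain OP685, which carries unc-119(tm4063) on chromosome III and the integrated transgene wgIs685, with GFP-FLAG at the carboxy terminus of ATHP-1. It was represented by 2 biological replicates of young adults of mixed sex, taken 64 hours after starved first-stage larvae were set to grow, and an anti-GFP antibody captured the tagged protein. The sources used here do not name the promoter that drives the transgene.

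Several of these regulators decide whether a germ cell stays a dividing stem cell or enters meiosis. In the worm gonad, a somatic niche cell activates the Notch receptor GLP-1 on neighbouring germ cells, and downstream of it the near-identical PUF proteins FBF-1 and FBF-2 bind messenger RNAs of meiotic genes and repress them. Further from the niche, GLD-1, a translational repressor of the STAR family, the cytoplasmic poly(A) polymerase GLD-2 and the Nanos protein NOS-3 drive entry into meiosis. RNP-8 is an RNA-binding partner of GLD-2, DAZ-1 is the worm counterpart of the DAZ family and is needed for oogenesis, PUF-5 acts in developing oocytes, and NOS-2 acts in the primordial germ cells of the embryo. Most of these proteins control RNA rather than DNA, so what is described here is binding of ATHP-1 at their genes.

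Each replicate list and the list made from both replicates held 30000 regions, and the list of reproducible peaks held 1649, which were the 1649 strongest regions of the pooled list. The pooled list is labelled as peaks and background, so a weak region in it need not be a site of binding. The same caution holds for weak regions of the replicate lists. The strength of a region is the signal score of the authors' peak caller, and it was used here to describe and rank regions within a list only. The last reproducible peak scored 105.6 and the next pooled region 105.5. A summit, the point of highest signal in a region, was given to a gene when it fell in a promoter window, 500 bp before to 200 bp after an annotated 5′ end, and distances below are negative upstream of that end. Read depth is unknown for these lists. Whole worms mix germ line with soma, so binding in fewer cells and weaker binding per cell cannot be told apart. Untagged worms were not analysed here.

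Of the 10 regulators only rnp-8 had a reproducible ATHP-1-GFP summit in a promoter window, and gld-2 and nos-3 came next. The reproducible list marked 1 of the 10, against 4.71% of all protein-coding genes (941 of 19973), and with 10 genes a count of 0 or 1 is what that share amounts to. Within the 5000 strongest regions of the pooled list 3 of the 10 had a summit, rnp-8, gld-2 and nos-3, against 10.9% of all genes. In the full pooled list the count was 6, against 30.7%. In the full list of replicate 1 it was 7, against 29.8%, and in that of replicate 2 it was 5, against 31.6%. Neither gld-1, fbf-1 nor nos-2 had a summit in the window in any of the 4 lists. No share of all genes is given for absence from every list.

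**Figure D1:**
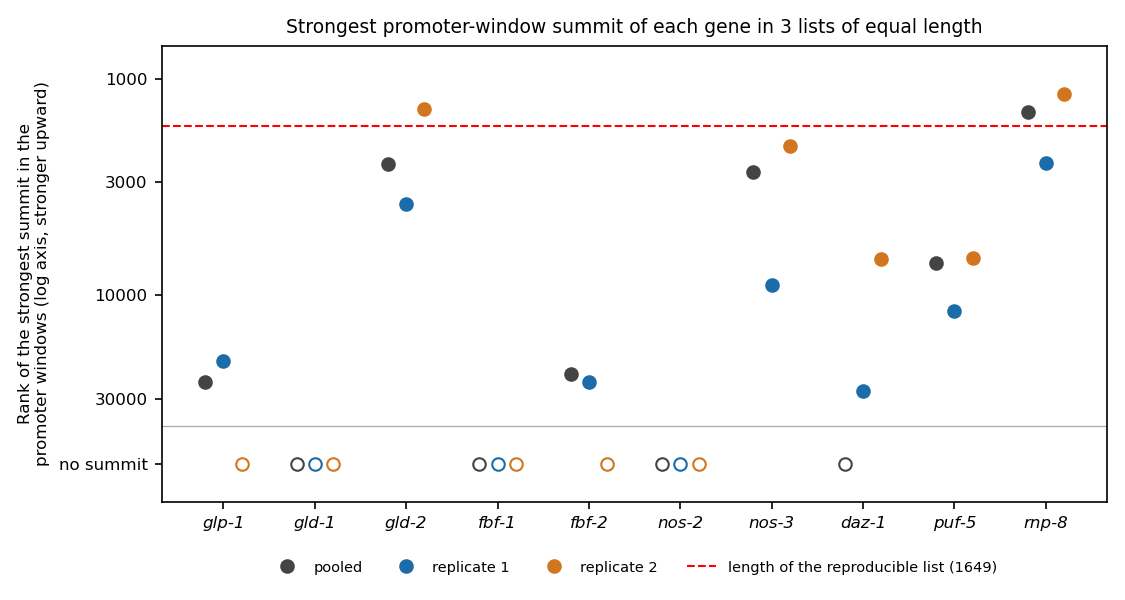
Rank of the strongest summit in the promoter windows of each gene (log axis, stronger upward) in the pooled list and in the lists of replicates 1 and 2, each of 30000 regions. Open circles mark lists with no summit in the window, and the dashed line marks rank 1649. The pooled summit of rnp-8 (rank 1422) lies above the line, and gld-2 (2470) and nos-3 (2694) lie below it.

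By pooled rank the order was rnp-8 (1422), gld-2 (2470), nos-3 (2694), puf-5 (7108), fbf-2 (23100) and glp-1 (25202). The rank of the strongest window summit had an SD between the 2 replicates of 904 for rnp-8, 1708 for gld-2, 4897 for nos-3 and 3618 for puf-5. At gld-2 and puf-5 the replicates led with different summits, 1622 and 328 bp apart, so there the SD is not that of 1 site. Neighbours among the first 4 lay no further apart in pooled rank than the larger of these SDs, each of which rests on 2 values. At 5 genes both replicates had a summit in a window, against 19.9% of all protein-coding genes (3984). The strongest summits of both replicates lay within 100 bp of each other at 2 of these 5, rnp-8 and nos-3, and over all genes with a summit in both replicates this was so in 57.5%. Counting any pair of summits in the windows, gld-2 and puf-5 also had one, so 4 of the 5 had a matched pair, against 68.8% of all genes.

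The regulators differ in how much window the annotation gives them. The gene gld-2 had 6 ends and 3691 bp of window, nos-3 had 5 and 1612 bp, and rnp-8 had 4 and 1626 bp. The other 7 regulators had a single end and 701 bp each. Among all genes with 4 or more ends, 62.3% had a pooled summit in a window and 10.3% a reproducible one. Among genes with 1 end the shares were 24.8% and 3.56%. All 3 regulators with several ends had a pooled summit, and 3 of the 7 with a single end did. With the outermost 5′ end alone, the same regulators kept a summit in each list: 1 in the reproducible list, 6 in the pooled list, 7 in replicate 1 and 5 in replicate 2. The share of all genes was then 4.42% in the reproducible list, 27.6% in the pooled list, 26.5% in replicate 1 and 28.1% in replicate 2.

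The Notch receptor gene glp-1 (WBGene00001609, chromosome III, 9092241 to 9099698, plus strand, ce11) had only a weak upstream region. Replicate 1 placed its summit at -455 bp with a signal of 20.1 and rank 20080, and the pooled list placed it at -454 bp with a signal of 28.6 and rank 25202. The negative log10 of q was only 0.155 in replicate 1 and 0.13 in the pooled list. Replicate 2 had no summit in the window. Stronger regions lay in the gene itself: replicate 1 had a signal of 37.8 (rank 4275) at 241 bp and the pooled list 47.4 (rank 9831) at 399 bp, both in an intron. The strongest of replicate 2 was in a coding exon at 2982 bp, with a signal of 26.1 and rank 11946. The strongest region of the gene thus differed between the replicates, and the nearest reproducible summit was 11986 bp downstream of the 5′ end.

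The upstream sequences of glp-1, daz-1 and nos-3 and the bases around the upstream summit of puf-5 are shown to set the weakly and more strongly marked promoters side by side. All are from the RefSeq assembly of WBcel235 (ce11), plus strand, 5′ to 3′, all of 1 length, with runs of 5 or more A or T in capitals. The first 3 end at the base before the annotated 5′ end, and the last has the pooled summit, at -265 bp, in its middle.
glp-1, chrIII:9092140-9092240: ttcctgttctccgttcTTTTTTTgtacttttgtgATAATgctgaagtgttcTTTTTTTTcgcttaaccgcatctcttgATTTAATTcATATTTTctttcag
daz-1, chrII:5456204-5456304: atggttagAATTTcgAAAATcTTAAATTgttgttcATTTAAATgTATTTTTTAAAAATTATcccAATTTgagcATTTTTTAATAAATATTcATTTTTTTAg
nos-3, chrII:9746215-9746315: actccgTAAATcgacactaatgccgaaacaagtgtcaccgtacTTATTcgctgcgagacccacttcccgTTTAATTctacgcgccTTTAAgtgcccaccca
puf-5, chrII:8575226-8575326: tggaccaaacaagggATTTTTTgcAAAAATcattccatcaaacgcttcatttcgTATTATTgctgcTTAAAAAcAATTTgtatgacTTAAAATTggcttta
The sequence of nos-3, the most strongly marked of the 4 promoters, had the lowest share of A and T of the 10 regulators (50.5%, longest run 7 bp). That of daz-1, where the pooled list had no summit in the window, had the highest (82.2%, longest run 17 bp). The other regulators showed no such order: the share was 71.3% at rnp-8, the only promoter with a reproducible peak, 71.3% before the 5′ end of puf-5, 65.4% at gld-2, and between 64.4% and 72.3% at the weakly marked or unmarked glp-1, gld-1, fbf-1, fbf-2 and nos-2. Over all protein-coding genes the median of the bases in the same place was 67.3%, with quartiles of 62.4 and 72.3%. The 5′ ends of glp-1 and daz-1 directly followed the letters TTTNAG on the sense strand, as did 14.0% of all genes. This is the usual form of a splice acceptor in worms, where many messages are trans-spliced, so that an annotated 5′ end can lie downstream of the true start of transcription.

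The PUF gene puf-5 (WBGene00004241, chromosome II, 8575541 to 8577787, plus strand) had an upstream region that both replicates found at the same place. The summit lay at -260 bp in replicate 1, with a signal of 20.5 and rank 19312, and at -269 bp in replicate 2, with a signal of 33.5 and rank 6686. The negative log10 of q was only 0.168 in replicate 1 and 0.824 in replicate 2. Replicate 1 had a stronger summit in the window at 59 bp, in a coding exon, with a signal of 25.7 and rank 11802, which replicate 2 lacked. In the pooled list the upstream summit was at -265 bp, with a signal of 54.5 and rank 7108, the centre of the sequence shown for this gene. The last reproducible peak scored 105.6 in the same list.

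The paired genes fbf-1 (WBGene00001401, chromosome II, 6078263 to 6080843, minus strand) and fbf-2 (WBGene00001402, 6088863 to 6091480, minus strand) carried little signal. In the window fbf-1 had no summit in any list; a summit of replicate 1 lay just past it, in a coding exon at 217 bp, with a signal of 16.6 and rank 27679. The strongest summit of fbf-2 was at -491 bp in replicate 1 (signal 17.6, rank 25227) and at 181 bp in the pooled list (signal 30.3, rank 23100), and replicate 2 had none. The negative log10 of q was only 0.0921 in replicate 1 and 0.151 in the pooled list. The pooled summit of fbf-2 also fell in the window of nspg-3, the next gene upstream, which is on the other strand. Just past the window, replicate 2 had a signal of 32.8 (rank 6995) at 373 bp and the pooled list 43.8 (rank 11632) at 384 bp, in a coding exon of fbf-2.

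These genes are near copies, which matters for how reads are placed. Their coding sequences were identical at 91.5% of 1896 aligned positions, and their promoter windows at 63.5% of 757. The 100 bases before each 5′ end are shown on the minus strand (RefSeq, WBcel235), with capitals where the aligned copy has a different base or none.
fbf-1, chrII:6080844-6080943: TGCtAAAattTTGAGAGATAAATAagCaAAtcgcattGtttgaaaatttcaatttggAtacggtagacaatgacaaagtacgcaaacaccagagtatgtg
fbf-2, chrII:6091481-6091580: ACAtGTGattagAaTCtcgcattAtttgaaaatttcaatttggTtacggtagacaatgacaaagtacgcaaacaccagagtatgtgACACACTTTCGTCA
In this stretch the copies shared an unbroken run of 42 bp. Of the words of 36 bases in the window, 8.71% occurred more than once in the 6 chromosomes for fbf-1 and 3.75% for fbf-2, and 0 for each of the other 8 regulators, taking the outermost window. Whether the peak lists used reads with more than 1 match is not stated, so the low values of this pair are uncertain. Repeated words were counted in the window only, not over the whole coding sequence.

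The Nanos genes differed from each other, with promoter summits in all 3 long lists at nos-3 and in none at nos-2. At nos-3 (WBGene00003785, chromosome II, 9746316 to 9750462, plus strand) the summit lay at -29 bp in replicate 1, with a signal of 28.7, and at -55 bp in replicate 2, with a signal of 54.8. Its rank was 8966 in replicate 1 and 2041 in replicate 2, so it was far higher in the order of replicate 2. The pooled summit, at -37 bp, had a signal of 83.9, rank 2694 and a negative log10 of q of 2.45. All these summits fell within the sequence shown for nos-3. They also fell in the window of Y53C12B.1, which lies 237 bp away on the other strand, so that the region is shared by a divergent pair of genes. A further region lay near an internal 5′ end of nos-3, in a coding exon, with a pooled signal of 49.6 (rank 8934) at 918 bp from the first end.

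The gene nos-2 (WBGene00003784, chromosome II, 7065618 to 7067051, plus strand) lies within the span of him-14, a meiotic gene on the other strand. Its window held no summit in any list, and from 500 bp before its start to 200 bp past its end the pooled list and each replicate list held a single region. That region was near the 3′ end, with a signal of 20.0 (rank 20247) in replicate 1, 34.7 (rank 6103) in replicate 2 and 54.2 (rank 7203) in the pooled list. The nearest reproducible summit was 63973 bp away.

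The DAZ family gene daz-1 (WBGene00000935, chromosome II, 5456305 to 5458609, plus strand) showed no agreement between the replicates at its 5′ end. Replicate 1 had a summit at 157 bp, in a coding exon, with a signal of 16.7, rank 27586 and a negative log10 of q of only 0.0729. Replicate 2 had summits at -447 bp (signal 33.2, rank 6793) and -167 bp (signal 27.1, rank 11023). Their negative log10 of q was 0.803 and 0.399. The closest pair of summits lay 324 bp apart, and the pooled list had none in the window. The region that both replicates found in this gene was near its 3′ end, as given below.

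The poly(A) polymerase gene gld-2 and its partner gene rnp-8, both on chromosome I, had the strongest promoter summits among the 10 by pooled rank. The lead of gld-2 (rank 2470) over nos-3 (rank 2694) was smaller than the SDs between replicates given above, so their order is not settled. At rnp-8 (WBGene00020091, 364510 to 368579, plus strand) replicate 1 had its summit at -120 bp with a signal of 46.3 and rank 2452. Replicate 2 had its summit at -174 bp with a signal of 68.9 and rank 1173. The reproducible peak ran from 364140 to 364559, with its summit at -160 bp, a signal of 113.1, rank 1422 of 1649 and a negative log10 of q of 2.98, below the maximum of 3.44 that 1393 peaks shared. In replicate 1 alone it was not among the 1649 strongest regions. No other protein-coding gene had this summit in its window, no noncoding RNA gene lay within 200 bp, and the next gene upstream, Y48G1A.1, ended 7273 bp away. Further regions lay inside rnp-8, the strongest with a pooled signal of 65.8 (rank 4569) in a coding exon at 1280 bp.

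At gld-2 (WBGene00001596, 6369748 to 6386194, plus strand) the replicates gave different leading summits. Replicate 2 had a signal of 64.5 and rank 1383 at 100 bp from the first 5′ end, in the annotated 5′ untranslated region. The strongest window summit of replicate 1, with a signal of 39.5 and rank 3798, lay at 81 bp from an internal 5′ end, 1622 bp from that of replicate 2. At the first end replicate 1 had a weaker one, with a signal of 25.6 and rank 11985, at 6 bp and 94 bp from that of replicate 2. In the pooled list the summit at the first end led, at 84 bp, with a signal of 87.1, rank 2470 and a negative log10 of q of 2.46. The gene ZC308.4 ended 151 bp upstream on the same strand, and its own window did not hold this summit. The nearest reproducible summit, of rank 1081, lay 1637 bp upstream of the first 5′ end of gld-2, outside its windows. The strongest region of gld-2 in replicate 1 lay elsewhere, in an annotated 3′ untranslated region at 15772 bp, with a signal of 43.6 and rank 2874. With the strongest 1649 regions of replicate 2 taken alone, gld-2 was marked as well as rnp-8, 2 of 10 against 5.00% of all genes. With those of replicate 1 alone 0 of 10 were marked, against 4.20%.

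The third gene on that chromosome, gld-1 (WBGene00001595, 7695681 to 7698222, plus strand), had no summit in its window in any list. Its upstream neighbour T23G11.4 ended 448 bp before it. Its strongest regions lay in and past its 3′ untranslated region, with a signal of 39.6 (rank 3764) at 2131 bp in replicate 1 and 38.7 (rank 4621) at 2398 bp in replicate 2. In the pooled list the strongest, at 2407 bp, had a signal of 63.6 and rank 4967. The strongest regions of gld-1 were thus at its end and not at its start.

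**Figure D2:**
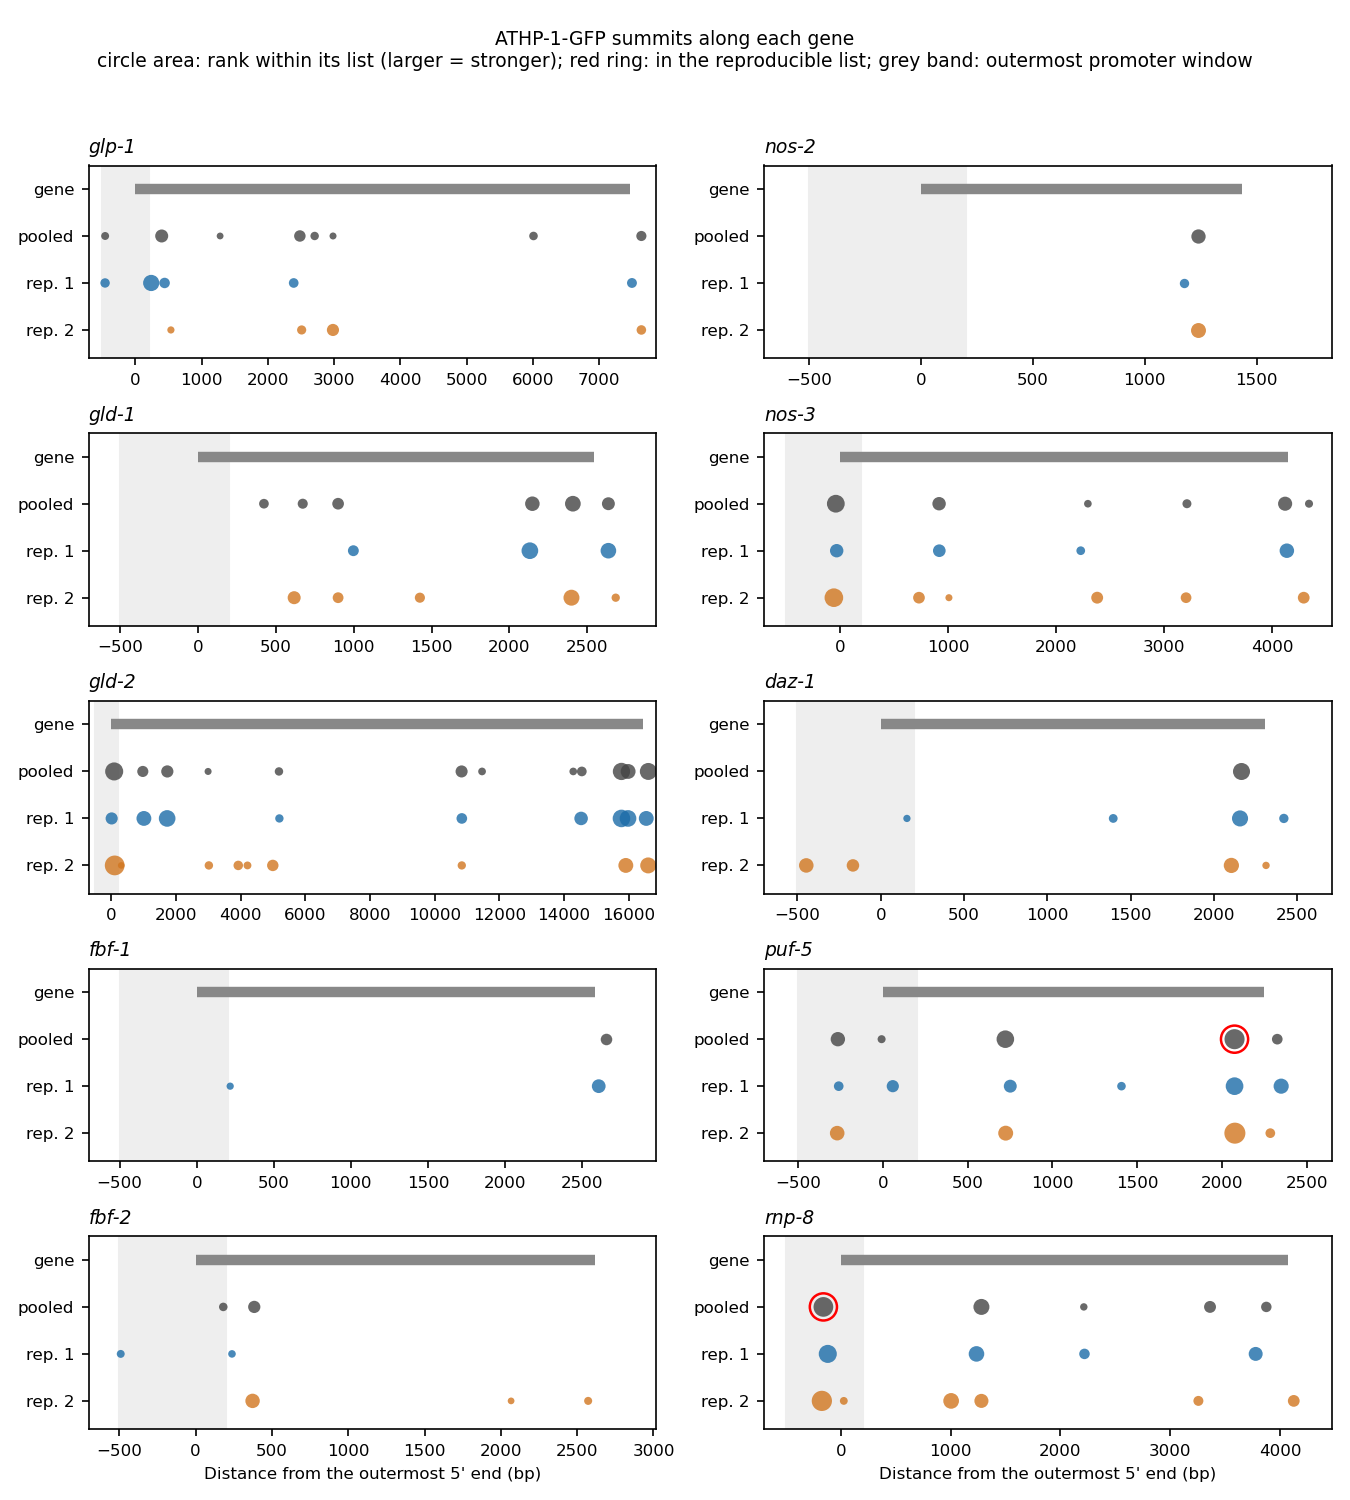
Summits along each gene, from 500 bp before the outermost 5′ end to 200 bp past the 3′ end, in the pooled list and the lists of replicates 1 and 2; the horizontal axis is the distance from the outermost 5′ end in bp. Circle area grows with the strength of the rank within its list, a red ring marks the 2 reproducible peaks (puf-5 and rnp-8), and the grey band is the promoter window of the outermost 5′ end. The strongest circles of daz-1, puf-5, gld-1 and nos-2 lie near the right end of the gene.

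Regions near 3′ ends were frequent among the regulators, though several of them were weak. This count was chosen after the values along the genes had been seen, so it is given as a description only. In the pooled list 9 of the 10 had a summit within 200 bp of an annotated 3′ end, against 20.5% of all protein-coding genes (4092). The negative log10 of q was 0.232 at glp-1, 0.25 at rnp-8, 0.343 at fbf-1, 0.751 at nos-3 and 0.797 at nos-2. At gld-1, gld-2, daz-1 and puf-5 it was 1.306, 1.999, 2.059 and 3.445. The count was 8 in replicate 1, against 20.7%, and 9 in replicate 2, against 20.0%. In the reproducible list only puf-5 had one, 1 of 10 against 3.01%. Among 55 related genes, listed below, 26 had one in the pooled list. The exception in the pooled list was fbf-2, for which replicate 2 alone had a summit there, with a signal of 18.0 and rank 24802. With 100 bp in place of 200 bp the pooled count was 5. No share of all genes is given for that distance, so this count cannot be set against 20.5%.

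The strongest 3′ region of the 10 was at puf-5, where both replicates put the summit within a few bases. Replicate 1 had a signal of 44.2 and rank 2776 at 2075 bp from the 5′ end, and replicate 2 had 77.5 and rank 880 at 2077 bp. The peak was in the reproducible list, from 8577406 to 8577825 on chromosome II, with a signal of 119.0, rank 1255 and the maximum negative log10 of q of 3.44. It lay in the annotated 3′ untranslated region of puf-5, -171 bp from its end. The same summit was in the window of F54C9.9, which starts 261 bp past puf-5 on the same strand. Next came daz-1, with signals of 37.2 (rank 4462) in replicate 1 and 35.8 (rank 5664) in replicate 2 and a pooled signal of 75.7 (rank 3383) in the 3′ untranslated region. At gld-2 the pooled signal near the end was 74.9 (rank 3439), and further in, at 15772 bp, it was 78.2 (rank 3141). The weakest pooled signals were those of glp-1 (35.5), rnp-8 (36.5) and fbf-1 (40.8).

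Other genes lay close to most of these 3′ regions. Of the 9 pooled summits, 6 lay in an annotated 3′ untranslated region of the regulator and 3 past its end. At 6 of them another protein-coding gene lay within 200 bp on the opposite strand: ZK507.1 at glp-1, klu-2 at gld-2, H12I13.6 at fbf-1, him-14 at nos-2, Y53C12B.7 at nos-3 and icpp-55 at rnp-8. The summits of gld-1 and puf-5 were in the windows of the next genes, T23G11.10 and F54C9.9. Only that of daz-1 had neither. Whether the regions belong to the regulators or to these neighbours cannot be told apart from the lists. In the pooled list the 3′ region was stronger than any summit in the promoter windows, or the only one, at 6 of the 9 genes, and over all genes with a 3′ summit this was so in 67.6% of 4092.

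**Figure D3:**
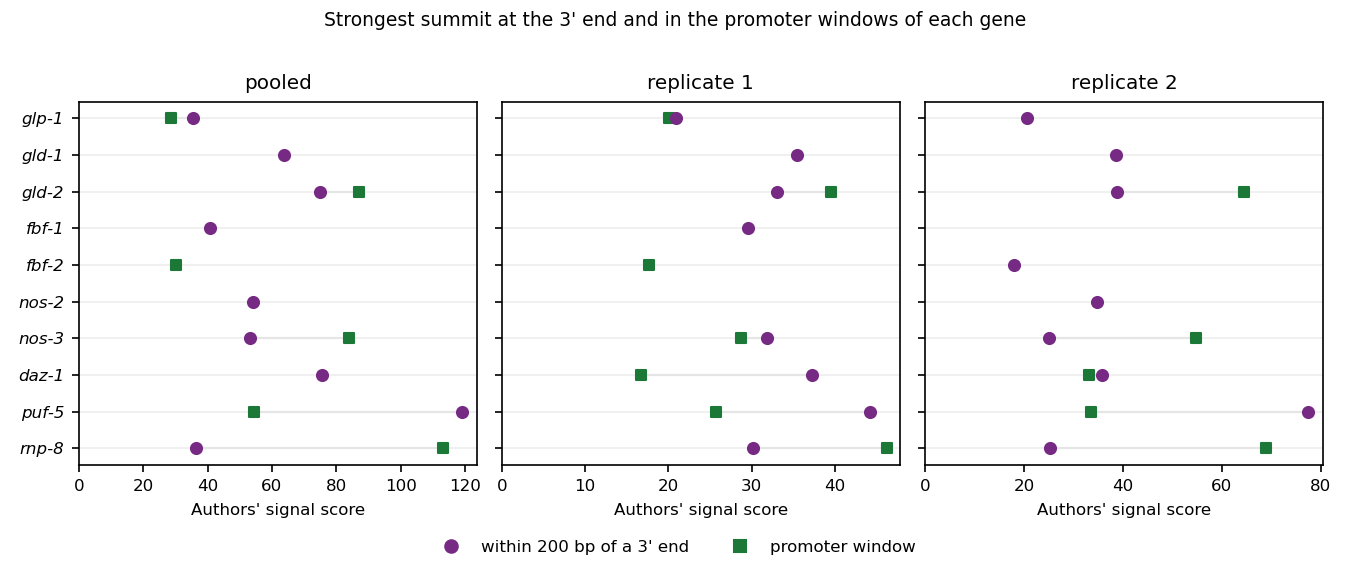
The authors' signal score of the strongest summit within 200 bp of an annotated 3′ end (circles) and in the promoter windows (squares) of each gene, in the pooled list and in each replicate; scores are not comparable between panels. In all 3 panels puf-5 has the higher score at its 3′ end and rnp-8 and gld-2 in their promoter windows, and gld-1, fbf-1 and nos-2 have no square in any panel.

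The bases under the 6 pooled promoter summits were read over the summit and 50 bp to either side. The share of A and T ran from 52.5% at nos-3 to 69.3% at puf-5, and it was 61.4% at rnp-8 and 55.4% at gld-2. The median was 61.9%, against 59.4% for the 7207 pooled summits in any promoter window (quartiles 52.5 and 65.4%) and 54.5% for the reproducible summits, with quartiles of 47.5 and 61.4%. The longest run of A and T was 5 to 9 bp, against a median of 8 bp in the larger set. Searched on both strands, the word AAATTT, which is its own reverse complement, was in 0 of the 6, against 17.9% of the larger set. AAAAAA, which can share its last or first 3 bases with that word, was in 3, at gld-2, puf-5 and rnp-8, against 33.6%, and GAGAGA was in 0, against 10.3%. At the 9 pooled summits near 3′ ends the median share of A and T was 62.4%, from 49.5% at fbf-1 to 73.3% at gld-2.

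Related genes of the same decision were read beside the 10, in 5 lists of 58 names, of which 55 matched an annotated protein-coding gene; puf-4, ntl-1 and mog-6 did not. In all, 8 of the 55 (14.5%) had a reproducible summit in a window, against 4.71% of all protein-coding genes, and 33 had one in the pooled list, against 30.7%. The first of these counts rests on the window: with 200 bp to either side of the 5′ end it was 1 of 55 (1.82%), against 2.60% of all genes, since 7 of the 8 summits lay more than 200 bp upstream. No test was made. Among 14 genes of Notch signalling, from the niche ligand gene lag-2 to the presenilin genes, 0 had a reproducible summit and 7 a pooled one. Among 12 partners in poly(A) tail and translation control, such as gld-3, gls-1 and fog-1, 0 had a reproducible summit and 7 a pooled one. Among 11 genes of germline sex determination only mog-4, an RNA helicase gene, did, with a signal of 351.9 and rank 59 at -202 bp, and 4 had a pooled one. Over the 5 lists of related genes, 14 genes had no summit in a window in any peak list. No share of all genes is given for such absence, so this count cannot be set against a background.

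PUF genes outside the 10 included strongly marked promoters. Of 7 matched genes, 3 had a reproducible summit, against 4.71% of all genes, and 5 had a pooled one, against 30.7%. The strongest was puf-9, with a signal of 366.6 and rank 50 at -272 bp, and its rank was 126 in replicate 1 and 36 in replicate 2. It was followed by puf-11, with 191.3 and rank 377 at -206 bp (rank 180 in replicate 1 and 967 in replicate 2). The third, puf-3, had 116.4 and rank 1330 at -231 bp, with rank 2535 in replicate 1 and 1159 in replicate 2, and it shared the summit with afmd-2. Their distances of more than 200 bp put all 3 outside the narrower window. The 3 PUF genes among the 10 had 0 reproducible summits in their windows, a count too small to set against these, and the values of fbf-1 and fbf-2 are uncertain as given above.

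Genes that act elsewhere in the choice between mitosis and meiosis had 4 of 11 with a reproducible summit, against 4.71% of all genes. A pooled one was found at 10 of the 11, against 30.7%. The 4 rest on the window, since only atx-2 had its summit within 200 bp of a 5′ end. The strongest of the 4 were atx-2, an ataxin-2 homolog, with a signal of 336.8 and rank 64 at -61 bp, and the RNA-dependent RNA polymerase gene ego-1, with 312.6 and rank 83 at -459 bp. The chromodomain gene mrg-1 had 214.4 and rank 271 at -250 bp and shared its summit with spcs-2, and teg-1, a germline tumour suppressor gene, had 167.1 and rank 541 at -244 bp and shared it with mcm-10. In each replicate these 4 lay within the strongest 1649 regions, teg-1 being lowest at rank 1129 in replicate 1. All 4 ranked above rnp-8, whose pooled rank was 1422.

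**Figure D4:**
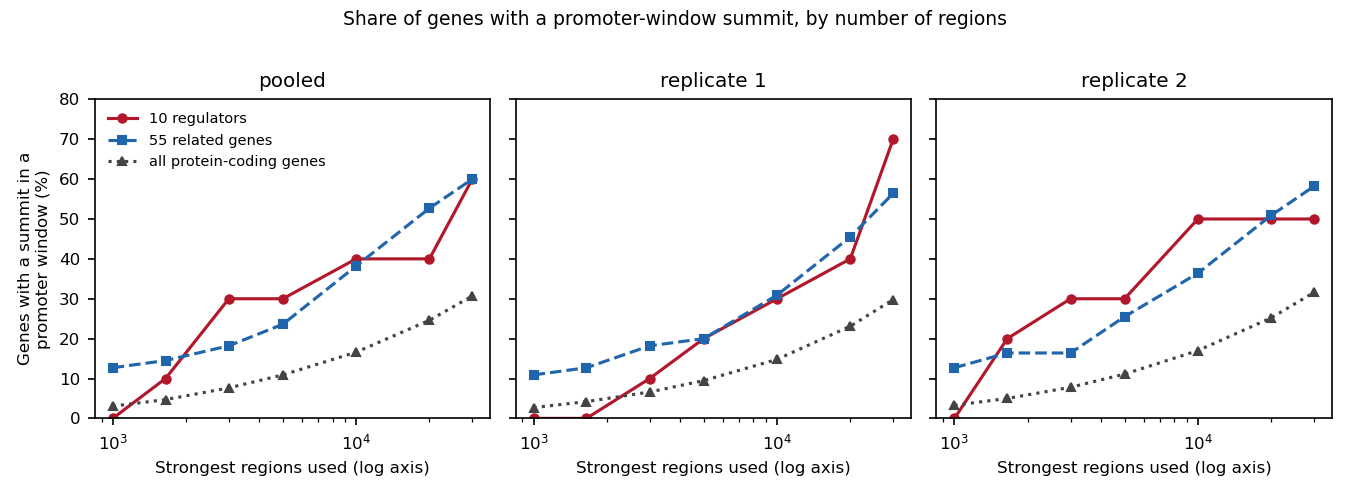
Share of genes (%) with a summit in a promoter window as more of the strongest regions are used (log axis, 1000 to 30000), for the 10 regulators, the 55 related genes and all 19973 protein-coding genes, in the pooled list and in each replicate. With the 1000 strongest regions 0 of the 10 regulators are marked in any panel, and each single regulator moves their line by 10 points.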

How the data were processed

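ChIP-seq peak lists of 2 biological replicates, 1 group, were analysed. Per the labels, fragmentation was by sonication. Per the deposited README text, each replicate list came from that replicate's alignment and the file that also enters the control-normalized signal, the pooled list from both alignments and that file, and the reproducible list from those 3 lists; the irreproducible discovery rate is named in the file names. The sources used here do not give the aligner, caller, threshold or read depth. The deposited signal score of each peak is the authors', on a scale that is not stated, and the deposited −log10 q-value was printed only. The summit is the deposited offset from the peak start, in bp. Coordinates are ce11 and 1-based; ce10 lists were not used.

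Genes came from Ensembl release 115 (WBcel235, 29314 5′ ends) and sequence from RefSeq's assembly of that build. Copies were aligned globally with Biopython 1.88 (match 1, mismatch -1, gap opening -5, extension -0.5). The 10 members and the related lists were chosen with earlier results of these data known, so no statistical test was made. The text names all 10, genes that share their summits, their neighbours, and related genes with a reproducible summit; neighbours without a bearing on a summit were left out. The assignment of summits to genes was checked on simulated summits placed inside and just outside windows. Python 3.11.15, numpy 2.4.6, pandas 2.3.3 and matplotlib 3.10.9 were used.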

Additional observations from a re-analysis of the deposited data

How the results depend on the processing

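No paired analysis was possible because there is a single group. The count of regulators with a reproducible promoter summit was 1. It ranged from 0 to 2 when either replicate was left out (the strongest 1649 regions of the other taken alone), was 0 in the 825 strongest peaks and 3 in the 5000 strongest pooled regions, and stayed at 1, always rnp-8, with a narrower window (200 bp on both sides of the 5′ end) or a wider one (from 1000 bp before it to 500 bp after), with the nearest 5′ end only, with any overlap of peak and window, and with the outermost 5′ end only. The same choices gave 520 of all protein-coding genes for the narrower window, 511 for the 825 strongest peaks and 2172 for the 5000 pooled regions, in place of 941, and 839 to 998 with a replicate left out. The wider window gave 1243, the nearest 5′ end only 757, any overlap 1092 and the outermost 5′ end only 883. Of the related genes, 1 of 55 (1.82%, against 2.60% of all genes) was marked with the narrower window, 13 were marked with the 5000 pooled regions and 7 to 9 with a replicate left out, in place of 8. With the strongest 1000 regions 0 regulators had a summit in replicate 1, replicate 2 or the pooled list. With the strongest 5000 the counts were 2, 3 and 3, and with 10000 they were 3, 5 and 4, in place of 7, 5 and 6. The share of all protein-coding genes fell as well. With 5000 it was 9.47%, 11.1% and 10.9%, in place of 29.8%, 31.6% and 30.7%. With 10000 it was also lower in each list, at 14.8% in replicate 1 and 16.6% in the pooled list. The full-list counts of 7, 5 and 6 stood with the outermost 5′ end only, an alternative chosen after seeing the data. With summits matched within 50 bp in place of 100 bp, 1 regulator in place of 2 had matching leading summits. For 3′ ends, alternatives chosen after seeing the data gave 5 at 100 bp, 9 at 400 bp and 8 to 9 with a replicate left out, in place of 9. No share of all genes is given for 100 or 400 bp. The cause of these changes was not tested. Some of the settings use fewer or more regions. Counts over 10 genes are coarse, read depth is unknown, and a single group allows no contrast.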

Other observations

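Regions inside the coding exons of the regulators recurred in both replicates at a few genes, outside the windows used above. In puf-5 a coding-exon summit lay at 752 bp in replicate 1 (signal 27.5, rank 10016) and at 725 bp in replicate 2 (signal 34.7, rank 6132), and the pooled list gave it a signal of 81.4 and rank 2873 at 723 bp. In rnp-8 the pooled coding-exon summit at 1280 bp was found at 1235 bp in replicate 1 (signal 35.3, rank 5164) and at 1280 bp in replicate 2 (signal 31.6, rank 7632). Replicate 2 had a stronger summit inside rnp-8, in an intron at 1004 bp (signal 37.7, rank 4978). The coding-exon places in puf-5 and rnp-8 were picked after their values were seen. No share over all genes was computed for them, and neither was in the reproducible list.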
